A study of Salmo salar with 96 samples.

Results

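The step from whole alevin to whole fry of Atlantic salmon (*Salmo salar*) was described in 10 of the 96 samples of the series. The samples were chosen by their labels, as whole alevin at 436 °d (degree days, the sum of daily water temperatures) and whole fry at 1119 °d or 1320 °d. There were 4 alevin and 6 fry, of which 2 fry were taken at 1119 °d (samples 1 and 2) and 4 at 1320 °d (samples 3 to 6). Each sample was read with the same custom panel of 220 genes, which was built around the age-at-maturity genes *vgll3a*, *akap11a* and *six6a*. Transcripts were counted directly with nCounter probes, without amplification, in 100 ng of RNA.

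All 10 fish were immature, of unrecorded sex, and of the hatchery strain from the Neva river. Alevin were labelled with no diet, fry 1 to fry 4 with a normal diet, and fry 5 and fry 6 with a low fat diet. The yolk sac was cut away from alevin, and the study's methods do not say this of fry. Fry were killed with an overdose of anesthetic before storage, which the methods do not say of alevin. Stage and this handling therefore cannot be told apart. The 4 alevin and the 1119 °d fry were read on the same cartridge, whereas the 1320 °d fry were read on another cartridge and had been reared at another site. Age, cartridge and rearing site of the 1320 °d fry therefore cannot be told apart.

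An alevin is a hatched salmon that still lives on its yolk, and a fry feeds by itself. Between these stages the liver, the skeleton and the musculature grow, and cells that divided in the embryo leave the cell cycle or mature. TEAD transcription factors and the VGLL, YAP and TAZ cofactors act at the end of the Hippo pathway, which restrains organ growth, and several of them are tied to fat and cartilage development in mammals.

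Total counts were 220367 to 317162 in alevin and 201761 to 384166 in fry. Counts were scaled to 6 reference genes, and the mean of the 8 negative control probes after scaling was 11.2 to 17.4 counts. A scaled count of 20 was used as the background threshold. Of the 220 genes, 178 had a mean of at least 20 in at least 1 of the 4 early stages and were tested. The other 42 had means of 3.09 to 18.7 scaled counts in alevin and 2.74 to 17.7 in fry, and they included *vgll3b*, *six6b* and the gonadotropin genes *cgba* and *cgbb*. Marker genes of several tissues were detected: *myf5a* of muscle precursors, *col1a1a* of skeleton and skin, *apoc1a* of liver and *six3a* of eye and forebrain were above 20 in all 10. Other eye and forebrain genes were not: *otx2c* was below 20 in 3 fry, *six6a* in fry 6 and *otx2d* in all 10. The growth hormone genes of the pituitary, *gha* and *ghb*, were above 20 in all alevin, whereas *gha* was below 20 in fry 3 and fry 6 and *ghb* in fry 6. In whole animals, fewer cells of a type and less RNA per cell cannot be told apart.

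One alevin stood apart at the genes of chromosome 25, and this touched *vgll3a* and *akap11a*. By their match to the RefSeq annotation of Ssal_v3.1, 10 tested genes lie on chromosome 25, and alevin 4 had the lowest count of the 4 alevin in each of the 10. Its count was 0.301 to 0.82 times the mean of the other 3 alevin, with a median of 0.516. Over the other 168 genes tested the median of this ratio was 0.975, and alevin 4 was the lowest alevin in 39.9% of them. In alevin 1 to alevin 4, *akap11a* was at 36.8, 47.9, 50.6 and 23.2 scaled counts. The Hippo kinase gene *lats2b* was at 194, 202, 175 and 95.6, and *tnfsf11*, the ligand that drives osteoclast formation, at 39.6, 42.4, 36.1 and 19.1. On the log2 scale the median difference of alevin 4 from the other alevin was -0.92 over these 10 genes. Over 15 chromosomes with at least 5 genes tested and the 10 samples, the other 149 such medians lay between -0.53 and 0.40. The pattern was looked for because the values drew attention to it, and fold changes of these genes over all fry are given with and without alevin 4.

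**Figure D1:**
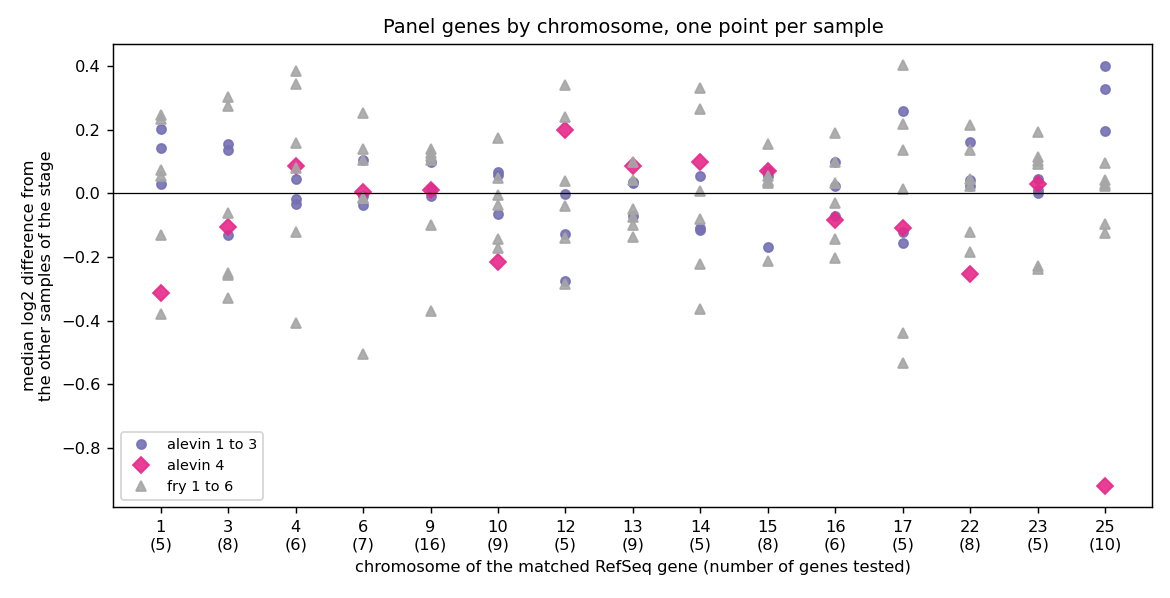
Median log2 difference of each sample from the other samples of its stage (y axis), over the tested genes matched to each chromosome (x axis, number of genes in brackets). Circles are alevin 1 to 3, diamonds alevin 4 and triangles the 6 fry. The point of alevin 4 on chromosome 25 is at -0.92, and the other 149 points lie between -0.53 and 0.40.

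From alevin to fry, 112 of the 178 genes passed the test (62.9%), 32 of them higher (18%) and 80 lower (44.9%) in fry, by edgeR's quasi-likelihood F test with Benjamini-Hochberg adjustment. Samples of the stages did not overlap in 20 genes with all fry above all alevin (11.2%) and in 60 with all fry below (33.7%). The excess of falls depended on the scaling. Over all 178 genes the median log2 fold change was -0.30, and with TMM factors over the panel it was 0.02 and the calls were 51 higher and 51 lower. DESeq2 with its own size factors gave 46 higher and 54 lower, and positive control probes gave 34 and 40. Under the main scaling and 10 others (TMM, DESeq2's size factors, positive controls, 4 reference genes, and each of the 6 reference genes left out in turn), 22 genes were called higher in fry every time (12.4%) and 39 lower (21.9%). Of these 10, DESeq2 differed from the main setting in its test as well as in its scaling. Log2 fold changes below are those of the 6 reference genes, and a gene that was not altered relative to the panel lies near -0.30. Without alevin 4 the calls were 28 higher and 78 lower.

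The gene *spp2* had the largest rise of the comparison, and both apolipoprotein C1 genes rose. *spp2*, which encodes a secreted phosphoprotein made in liver and deposited in bone, was at 47.8, 24.0, 225 and 303 scaled counts in alevin 1 to alevin 4. In fry it ran from 509 to 2431, with a median of 1549. No fry overlapped the alevin, and the rise was 3.30 on the log2 scale (SE 0.58, adjusted p = 6.7e-05). Apolipoprotein C1 is a lipoprotein component made in liver. *apoc1a* went from 306–534 in alevin to 943–2576 in fry without overlap (log2 fold change 1.93, SE 0.25, adjusted p = 2.5e-06). *apoc1b*, the more abundant of them, went from 1006–4361 in alevin to 3246–22224 in fry, where fry 3 and fry 6 lay within the range of the alevin (log2 fold change 2.12, SE 0.49, adjusted p = 9.4e-04).

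Both genes named *mst1* rose with them. The symbol is used in mammals for a Hippo kinase and for a protein secreted by liver, and the sources do not say which of these the probes read. *mst1b* was at 13.8, 20.3, 30.7 and 49.2 scaled counts in alevin and at 36.5 to 225 in fry, with a median of 111 (log2 fold change 2.03, SE 0.62, adjusted p = 7.9e-03). *mst1a* was at 27.7 to 76.5 in alevin and 59.8 to 188 in fry, at 1.26 on the log2 scale (SE 0.43, adjusted p = 0.017). For both, the fry overlapped the alevin at the low end. With negative controls subtracted, neither *mst1* gene passed the test.

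The spread among fry was wide in this set and had the same lowest samples. The highest fry exceeded the lowest by 4.78-fold in *spp2*, 6.85-fold in *apoc1b*, 2.73-fold in *apoc1a*, 6.16-fold in *mst1b* and 3.14-fold in *mst1a*. In each of these 5 genes, fry 3 and fry 6 were the lowest pair of the 6 fry. This held for 23 of the 178 genes tested (12.9%), and fry 3 and fry 6 differ in diet. Alevin 1 and alevin 2 were below alevin 3 and alevin 4 in *spp2*, *apoc1b* and *mst1b*, and also in *mst1a*. This did not hold in *apoc1a*, where alevin 1 was the highest alevin, at 534, and alevin 2 the lowest, at 306.

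CEBP genes encode transcription factors of liver and fat cell differentiation. Of the 5 tested, 4 were higher and 0 lower in fry, beside 18% higher over all genes, and their median log2 fold change was 0.70. Of the CEBP, PPAR and KLF15 genes together, 7 of 15 were higher and 2 lower. *cebpba* was at 135, 136, 134 and 127 scaled counts in the alevin and at 541, 336, 544, 508, 387 and 269 in fry 1 to fry 6. The lowest fry lay well above the highest alevin, and the rise was 1.69 on the log2 scale (SE 0.21, adjusted p = 1.8e-06). *cebpaa* was at 165 to 198 in alevin and 380.5 to 558 in fry, a rise of 1.29 on the log2 scale (SE 0.14, adjusted p = 4.3e-07). *cebpab* and *cebpda* rose by 0.70 and 0.49 on the log2 scale. *cebpdb*, the most abundant CEBP gene, had means of 1895 in alevin and 1949.9 in fry and was not called, at 0.04 (adjusted p = 0.84). With TMM factors *cebpdb* was called higher, at 0.36. The sixth CEBP gene, *cebpbb*, was not tested, with means of 8.70 and 9.83.

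*ppargc*, one of the salmon genes of the adipocyte receptor PPAR gamma, was at 19.1 to 29.4 scaled counts in alevin and 39.3 to 66.0 in fry. The groups did not overlap, although the alevin lay near the background threshold (log2 fold change 1.12, SE 0.18, adjusted p = 3.1e-05). The genes of PPAR alpha, a receptor of fatty acid breakdown, went apart: *pparab* was called higher at 0.34 (adjusted p = 0.038) and *pparaa* lower at -0.28 (adjusted p = 0.029). The latter was at 0.04 with TMM factors. *pparb2b*, of the PPAR beta class, fell from 80.6–112 in alevin to 33.9–63.9 in fry, at -1.03 on the log2 scale. Among the KLF15 genes, which encode a zinc finger factor of amino acid and lipid metabolism, *klf15a* rose and the other 3 did not pass. With TMM factors 3 of the 4 were called higher, and with positive control scaling also 3, beside 51 and 34 of 178 over all genes. *klf15a* was at 50.5 to 56.2 in alevin, at 99.7 and 63.0 in the 1119 °d fry and at 127 to 151 in the 1320 °d fry, so that the later fry were apart from the earlier ones too. *foxo1c*, of the insulin-regulated FOXO1 factors, rose from 50.5–61.6 to 85.5–119 (log2 fold change 0.83, adjusted p = 2.4e-05).

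**Figure D2:**
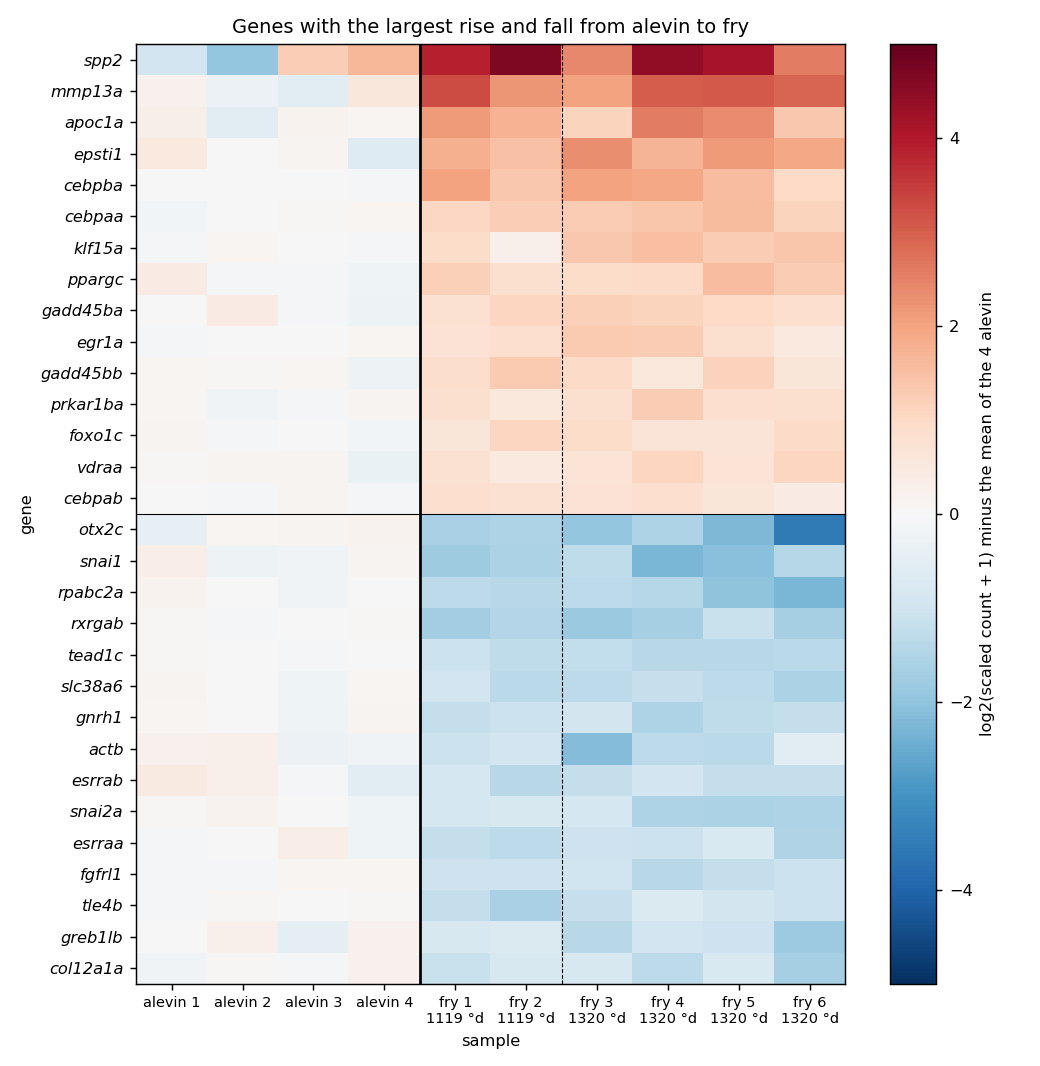
Change of the 15 genes with the largest rise and the 15 with the largest fall among those called without overlap (rows), in each of the 10 samples (columns), as log2(scaled count + 1) minus the mean of the 4 alevin. Red is above the alevin mean and blue below it. The solid line separates the stages and the dashed line the fry ages. Of these genes *spp2* has the widest spread among alevin, and *otx2c* is lowest in fry 6, at 5.36 scaled counts.

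Genes of bone and cartilage moved in both directions. Of the mmp13 genes, which encode collagenase 3, an enzyme of bone and cartilage turnover, *mmp13a* rose and *mmp13c* fell. *mmp13a* was at 163, 114, 97.5 and 206 scaled counts in alevin and 1358, 641, 562, 1134, 1180.4 and 1057 in fry, 2.78 higher on the log2 scale (SE 0.31, adjusted p = 4.3e-07). *mmp13c* was at 162, 243, 79.4 and 51.9 in alevin and at 19.3 to 53.1 in fry, and of these only fry 5 reached the lowest alevin. Against alevin it was at -2.27 on the log2 scale in the 1119 °d fry and -1.87 in the 1320 °d fry, and it was called over all 6 samples of fry by edgeR, with an adjusted p of 3.2e-05. The earlier stages add the course of these genes. *mmp13a* had means of 785 at 186 °d, 227 at 258 °d, 145 in alevin and 989 in fry, so that its lowest mean was in alevin. *mmp13c* had means of 13.3, 22.2, 134 and 34.3, with the highest in alevin. *spp2* had means of 3.48 and 14.3 in the embryos, below the threshold, and first exceeded 20 in alevin.

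SOX9, a master factor of cartilage, has 4 genes on the panel, and 3 of them were lower in the fry samples (median log2 fold change -0.63), beside 44.9% lower over all genes. *sox9a* fell from 1669–1844 in alevin to 709–1032 in fry, at -0.91 on the log2 scale (SE 0.10, adjusted p = 3.2e-07), and *sox9c* fell by 0.90 on the log2 scale. *sox9d* was called at -0.30 and was at 0.01 with TMM factors. Collagen genes were split. The genes of collagen XII, which coats collagen fibrils, fell: *col12a1a* from 478–619 in alevin to 171–313 in fry, at -1.05 on the log2 scale, *col12a1c* from 4189–4786 to 1501–2957 (-0.95) and *col12a1b* by less (-0.49), which was at -0.17 and not called with TMM factors. *aebp1*, whose protein binds collagen, fell by 0.80 on the log2 scale.

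Collagen I genes varied widely among fry. *col1a1b* was called higher at 0.64 (SE 0.26, adjusted p = 0.038), with fry 5 at 21273 scaled counts, the other fry at 7308 to 10770 and the alevin at 5476 to 9308. Without the low fat fry it was at 0.32 and not called (adjusted p = 0.14), and the call was also lost without fry 2 or fry 5 and without alevin 1, 2 or 3. *col1a1a* and *col1a2*, among the most abundant transcripts of the panel, did not pass the test, at -0.19 each, and were at 0.12 each with TMM factors. In both, fry 2 was highest, at 49853 and 86953, and fry 4 and fry 6 were the lowest pair. In the 1320 °d fry alone both were called lower (log2 fold change -0.48 each), and in the 1119 °d fry both were at 0.26 and not called.

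Regulators of early mesoderm, muscle and neural crest fell together. All 5 genes tested in this group were lower in fry, beside 44.9% over all genes. All 5 were lower also with TMM factors, beside 51 of 178 over all genes. Their median log2 fold change was -0.94. *snai1*, which encodes a zinc finger repressor of epithelial genes, was at 100, 66.4, 70.4 and 88.8 scaled counts in alevin and 22.6, 26.5, 32.4, 15.6, 18.1 and 29.0 in fry. The groups lay far apart, at -1.75 on the log2 scale (SE 0.17, adjusted p = 1.4e-07). The related *snai2a* and *snai2b* fell by 1.16 and 0.94 on the log2 scale. *myf5a*, a gene of muscle precursor cells, fell from 231–274 in alevin to 97.2–176 in fry, at -0.83 on the log2 scale, and *myf5b* from 236–308 to 95.4–192 (-0.77). Outside this group, *kif15*, which encodes a motor protein of the mitotic spindle, fell from 238–294 to 78.3–204 (-1.01, adjusted p = 7.0e-05).

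All 7 TEAD genes were lower in fry, beside 44.9% over all genes, with a median log2 fold change of -0.64. All 7 were called at both fry ages. With TMM factors 4 of the 7 were called, all lower, beside 51 of 178 lower over all genes. Under all 11 scalings 3 were called, beside 21.9%. *tead1c* was at 215, 207, 199 and 209 scaled counts in alevin and 98.9, 86.7, 87.2, 78.0, 79.0 and 80.5 in fry. This change had the smallest adjusted p of the comparison (log2 fold change -1.28, SE 0.08, adjusted p = 3.2e-10). Its means had been 565 at 186 °d and 320 at 258 °d. *tead1d* and *tead1a* fell by 0.81 and 0.72 on the log2 scale, and *tead3b*, the most abundant TEAD gene, by 0.47, from 942–1032 to 622–831. The latter was at -0.15 with TMM factors and not called.

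Of the cofactors of TEAD, 3 of 4 tested were called lower, beside 44.9% over all genes. None of these 3 was called with TMM factors. *vgll3a* was at 58.0, 61.8, 62.3 and 41.0 scaled counts in alevin and 38.6, 49.3, 35.5, 44.9, 29.8 and 44.0 in fry. Alevin 4 lay within the range of the fry. The log2 fold change was -0.47 (SE 0.16, adjusted p = 0.017), and without alevin 4 it was -0.58 (SE 0.16, adjusted p = 4.2e-03). With TMM factors it was -0.15 (adjusted p = 0.47). It was called under 5 of the 10 other scalings, and the call was lost without alevin 2 (adjusted p = 0.057) or alevin 3 (adjusted p = 0.054). In the 1119 °d fry on the cartridge of the alevin it was -0.36 (SE 0.21, adjusted p = 0.18). *yap1* (-0.35, adjusted p = 0.037) and *wwtr1a*, which encodes TAZ (-0.42, adjusted p = 1.9e-03), were the other 2. *wwtr1b* had means of 631 and 621 and did not pass, and with TMM factors it was called higher, at 0.29.

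Kinase genes of the Hippo pathway apart from *mst1* were lower where they were called. Of the 8 genes of the list, the *mst1* genes included, 4 were called lower, beside 44.9% over all genes. *lats1b* went from 87.4–110 in alevin to 51.1–65.1 in fry, at -0.81 on the log2 scale (adjusted p = 4.3e-06), and *lats1a*, *stk3a* and *stk3b* fell by 0.58, 0.63 and 0.54 on the log2 scale. With TMM factors *lats1b* and *stk3a* were called, and with positive control scaling *lats1b*. *lats2a* and *lats2b* did not pass. *lats2b* lies on chromosome 25, and without alevin 4 it was called lower (log2 fold change -0.42 against -0.25 with it).

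Groucho corepressors, which silence genes together with homeobox and other factors, were lower in fry for 8 of 8 genes. Over all genes 44.9% were lower, and the median log2 fold change of the 8 was -0.70. With TMM factors 5 of the 8 were called, all lower, beside 51 of 178 lower over all genes. Under all 11 scalings 3 were called, beside 21.9%. *tle4b* was at 105, 116, 111 and 119 scaled counts in alevin and at 35.6 to 67.0 in fry, at -1.11 on the log2 scale (SE 0.14, adjusted p = 1.6e-06). *tle1b* fell from 117–152 to 68.5–88.1 (-0.79), *aesa* from 632–721 to 365–503 (-0.67), and *aesb* was called at -0.25. The last was at 0.07 with TMM factors and 0.02 with DESeq2 and was called under 3 of the 10 other scalings.

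Homeobox genes of the eye, forebrain and pituitary went the same way or did not pass. *otx2c* was at 54.3, 76.5, 79.4 and 80.6 scaled counts in alevin and 22.6, 23.7, 18.3, 23.8, 14.2 and 5.36 in fry, so that 3 of the 6 fry were below the threshold (log2 fold change -1.97, SE 0.23, adjusted p = 8.2e-07). *otx2b* fell from 75.1–98.6 to 29.0–56.9 (-1.03). *otx2a* was at 32.5 to 43.7 and 22.9 to 46.6 and did not pass. *six6a* was at 42.3, 39.6, 38.8 and 35.5 in alevin and 26.8, 21.0, 21.3, 27.5, 23.3 and 16.1 in fry, without overlap (log2 fold change -0.78, SE 0.15, adjusted p = 1.8e-04). *six4* fell by 0.93 and *six3c* by 0.52 on the log2 scale, while *six3a* and *six3b* did not pass. *pitx1a* and *pitx1b*, of a pituitary and limb factor, were called at -0.54 and -0.77, and neither was called with TMM factors (-0.24 and -0.46). Only 1 of 6 fry reached 20 in *pitx1b*, so its size is not exact. *slc38a6*, an amino acid transporter gene that lies near *six6a* on chromosome 9, fell from 134–171 to 50.4–79.6 (-1.27, adjusted p = 5.4e-08). Of the 16 tested genes matched to chromosome 9, 10 were lower and 1 higher, beside 44.9% lower over all genes.

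**Figure D3:**
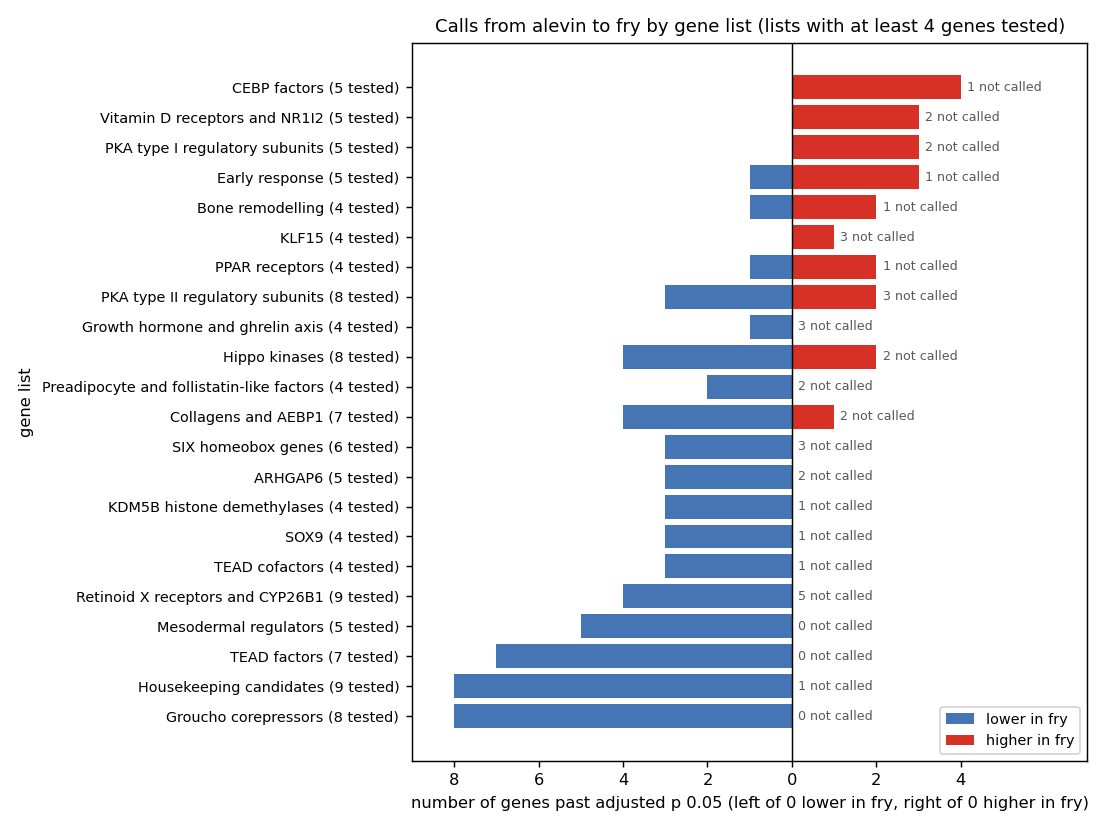
Number of genes of each list that were called in fry against alevin, lower (blue, left of 0) or higher (red, right of 0), at an adjusted p of 0.05. Lists with at least 4 genes tested are shown, with the number tested in brackets and the number not called beside each bar. Mesodermal regulators, TEAD factors and Groucho corepressors have 0 genes that were not called, and the CEBP list has 4 of 5 on the right. In the Hippo kinase list, the 2 genes on the right are *mst1a* and *mst1b*, whose probes may not read a kinase. Over all genes tested, 18% were called higher and 44.9% lower.

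Regulatory subunits of protein kinase A, the kinase that cyclic AMP activates, are of 2 types. Of the 5 type I genes, 3 were higher and 0 lower, and of the 8 type II genes, 2 were higher and 3 lower. Over all genes tested the shares were 18% higher and 44.9% lower. *prkar1ba* was at 153, 125, 139 and 157 scaled counts in alevin and at 205 to 349 in fry, at 0.85 on the log2 scale (SE 0.14, adjusted p = 2.4e-05). *prkar1bb* was called at 0.38 and *prkar1aa*, a reference gene, at 0.21. Among type II genes, *prkar2ab* went from 15.6–34.3 to 36.2–46.1 (0.67) and *prkar2ac* was called at 0.33, while *prkar2bc* (-0.71), *prkar2bd* (-0.62) and *prkar2ad* (-0.38) were lower. With TMM factors 5 type I genes were called higher and 0 lower, and of type II 2 higher and 2 lower. With positive control scaling 2 of each type were called higher and 0 lower. Over all 178 genes TMM factors called 51 higher and 51 lower, and positive controls 34 higher and 40 lower. The types were not tested against each other.

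The anchors of this kinase encoded by *akap11a* and *akap11b* were near the limit of the test. *akap11a* was at 51.1, 58.4, 50.7, 54.1, 54.4 and 65.4 scaled counts in fry, all above the highest alevin, at 50.6, although by little. The log2 fold change was 0.47 (SE 0.17, adjusted p = 0.021), and without alevin 4 it was 0.30 (SE 0.14, adjusted p = 0.072). The call was also lost without alevin 1 (adjusted p = 0.061) and without the fry on low fat diet (adjusted p = 0.062). *akap11b* was at 55.2 to 76.5 in alevin and 77.1, 71.2, 47.7, 109, 176 and 126 in fry, with the low fat fry 5 and fry 6 highest, and it was not called (0.56, SE 0.25, adjusted p = 0.064). With TMM factors it was called, at 0.89, and without the low fat fry it was at 0.18 (adjusted p = 0.47).

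Of the other genes matched to chromosome 25, *epsti1*, an interferon-induced gene in mammals, rose most. It was at 115, 81.1, 89.4 and 51.9 scaled counts in alevin and 277, 227, 408, 268, 356 and 312 in fry, at 1.85 on the log2 scale (SE 0.21, adjusted p = 8.4e-07). Without alevin 4 it was at 1.69 (adjusted p = 3.6e-06). *asmt*, whose protein makes melatonin, was called at 0.74 (adjusted p = 0.025) with alevin 4, at 9.56, and was not called without it (0.51, adjusted p = 0.077). *ccdc138* was called at -0.91 with alevin 4 and -1.05 without it, *arhgap6e* at -0.63 and -0.79, and *chmp2b* at 0.45 and 0.38. Fry were near background in *arhgap6e*, at 10.1 to 24.7, and only 1 of 6 reached 20, so its size is not exact. *tnfsf11* was at 0.32 and 0.15, not called either way, and *edar* at -0.27 and -0.43, called only without it. With TMM factors and alevin 4 included, *tnfsf11* was called higher, at 0.64. In total 4 of the 10 chromosome 25 genes were called higher and 3 lower, beside 18% and 44.9% over all genes. Without alevin 4, 2 were called higher and 5 lower, since *akap11a* and *asmt* were lost and *lats2b* and *edar* were gained.

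Of 5 genes of vitamin D and related receptors, 3 were higher and 0 lower, beside 18% higher over all genes. Of 9 genes of retinoid X receptors and a retinoic acid enzyme, 0 were higher and 4 lower, beside 44.9% lower over all genes. With TMM factors these 9 were 1 higher and 3 lower, beside 51 of 178 each way over all genes. *vdraa* was at 523, 550, 556 and 403 scaled counts in alevin and 865, 700, 808, 1055, 817 and 1066 in fry, at 0.80 on the log2 scale (SE 0.12, adjusted p = 7.7e-06). *vdrad* (0.54) and *vdrab* (0.37) were also called, all 3 under all 11 scalings, beside 12.4% higher over all genes. *vdrac* was at 184 to 294 in alevin and 171 to 498 in fry and was not called (0.37, adjusted p = 0.15), whereas with TMM factors it was, at 0.70. As reference genes, *vdraa* and *vdrab* enter the scaling factor themselves. *rxrgab* was at 373, 342, 353 and 381 in alevin and 109, 131, 99.4, 115, 168 and 114 in fry, with the groups far apart (log2 fold change -1.57, SE 0.11, adjusted p = 2.5e-09). *rxrab* and *rxrac* fell by 0.97 and 0.61 on the log2 scale. Estrogen-related receptors alpha, which act on mitochondrial energy metabolism, fell from 172–250 to 70.8–119 in *esrraa* (-1.15) and from 290–591 to 164–236 in *esrrab* (-1.18).

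Early response genes were higher for 3 of 5, beside 18% over all genes. *egr1a* was at 201, 216, 209 and 225 scaled counts in alevin and at 296 to 533 in fry, at 0.95 on the log2 scale (SE 0.15, adjusted p = 2.4e-05). The stress-induced *gadd45ba* rose from 34.1–54.4 to 69.6–96.3 (0.99) and *gadd45bb* from 145–187 to 252–430 (0.93). Killing with anesthetic is described for fry only, and its part in these values was not tested. *egr1d* was called lower, at -0.52, and was not called with TMM factors (-0.20). Histone demethylase genes of the KDM5B family were lower for 3 of 4, beside 44.9% over all genes, led by *kdm5bd* (-0.80). With TMM factors 1 was higher and 2 lower, and with positive control scaling 0 were higher and 1 lower. Over all 178 genes these scalings called 51 higher and 51 lower, and 34 higher and 40 lower.

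Most genes of the reproductive axis were at or near background. *gnrh1*, a gene of gonadotropin-releasing hormone, was at 27.6, 25.8, 22.6 and 28.7 scaled counts in alevin and 8.25 to 13.2 in fry. All alevin were above the threshold and all fry below it (log2 fold change -1.25, SE 0.16, adjusted p = 1.8e-06). The negative controls averaged 11.2 to 15.9 in the fry, so the level there was not distinguishable from background. *gnrhr1a*, of a receptor of that hormone, was called at 0.80, from 20.2–30.7 to 28.3–60.5. *esr1*, of an estrogen receptor, and the androgen and progesterone receptor genes *arb1*, *arb2* and *pgra* did not pass, at 0.02, -0.12, -0.01 and -0.06. *greb1lb*, related to a gene that estrogen induces in mammals, fell from 46.0–73.7 to 17.2–37.4 (-1.10). Growth hormone *ghb* was at 197, 193, 203 and 109 in alevin and 190, 149, 41.6, 135, 27.2 and 7.51 in fry. Over all fry it was at -0.91 on the log2 scale and did not pass (SE 0.48, adjusted p = 0.11).

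Genes often taken as constant were among the falls. Of 9 such candidates on the panel, 8 were lower in fry, beside 44.9% over all genes, and only *gapdh* did not pass. With TMM factors 6 of the 9 were lower, beside 51 of 178 over all genes. *rps20*, a reference gene of a ribosomal protein, made up 11.4 to 11.7% of all counts in alevin and 5.68 to 8.27% in fry. *ef1aa*, of a translation factor, fell from 18409–21890 to 7801–12044 (log2 fold change -0.96), *rpabc2a*, of an RNA polymerase subunit, from 835–1069 to 196–385 (-1.58), and *actb* from 36.1–53.5 to 9.13–31.1 (-1.20). The lowest *actb* count, in fry 3, was below the mean of that sample's negative controls (13.3), so the size for *actb* is not exact. *gapdh* was at 43100 to 51916 in alevin and 16105 to 88313 in fry, with fry 2 and fry 6 highest. Of the other reference genes, *ef1ac* was called at -0.38, and *rxrbaa* was at -0.02 and not called, with a positive sign under 7 of the 10 other scalings. Leaving *rps20* out of the reference set gave 22 higher and 98 lower, and leaving *vdraa* out 40 higher and 62 lower.

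The fry ages were then set against the same 4 alevin apart. The 1119 °d fry differed in 87 genes (48.9%), 23 higher (12.9%) and 64 lower (36%), and the 1320 °d fry in 119 (66.9%), 32 higher (18%) and 87 lower (48.9%). With TMM factors these splits were 37 higher and 41 lower, and 50 higher and 46 lower. The first comparison lies within a cartridge and a rearing site and rests on 2 fry. For *spp2* the log2 fold changes were 3.72 (SE 0.66) at 1119 °d and 3.04 (SE 0.60) at 1320 °d. For *tead1c* they were -1.16 (SE 0.10) and -1.35 (SE 0.08), for *snai1* -1.72 (SE 0.25) and -1.76 (SE 0.20), and for *mmp13a* 2.80 (SE 0.37) and 2.77 (SE 0.33). Fry 4 and fry 5, both at 1320 °d, were below 20 in *snai1*. With alevin 4 included, for *vgll3a* they were -0.36 (SE 0.21, not called) and -0.53 (SE 0.18, adjusted p = 0.014), for *six6a* -0.71 and -0.82, both called. *akap11b* was at 0.13 (SE 0.31, not called) and 0.74 (SE 0.26, adjusted p = 0.017), where the low fat fry 5 and fry 6 were highest. With alevin 4 included, *akap11a* was called higher at 1320 °d and was not called at 1119 °d.

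**Figure D4:**
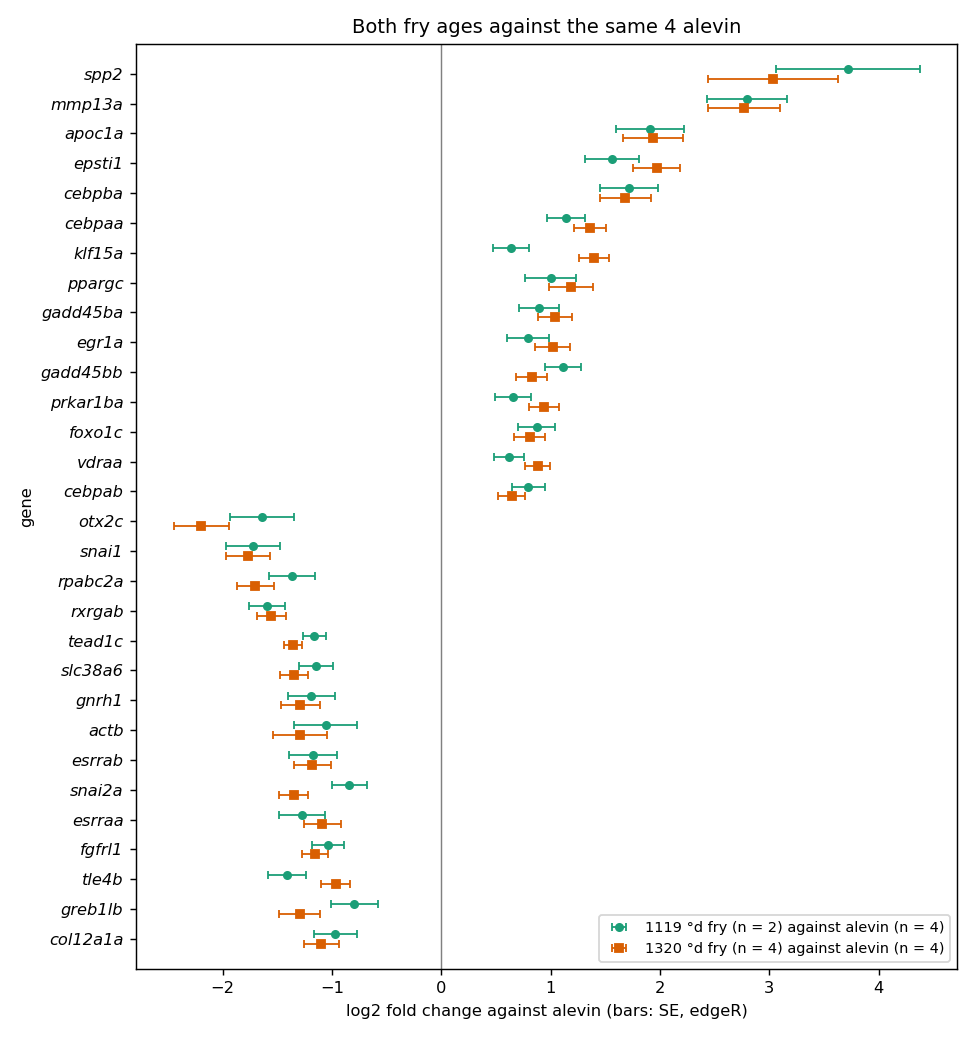
Log2 fold change against the same 4 alevin (x axis) of the 2 fry at 1119 °d (circles) and the 4 fry at 1320 °d (squares), for the 15 largest rises and 15 largest falls (y axis). Bars are SE calculated from edgeR's F statistic. All points of a gene lie on one side of 0, and of these genes *klf15a* has its ages furthest apart, at 0.64 and 1.40.

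Between the fry ages themselves, 3 of 178 genes were called (1.69%), and 31 had an unadjusted p under 0.05. *klf15a* was higher in the 1320 °d fry, at 0.76 on the log2 scale (adjusted p = 0.015). *vdrac*, a further vitamin D receptor gene, was at 171 and 237 scaled counts at 1119 °d and 286, 498, 432 and 379 at 1320 °d, with alevin at 184 to 294 (log2 fold change 0.97, adjusted p = 0.020). *rxrbac* was at 536 and 577 and at 393 to 428, with alevin at 544 to 633 (-0.42, adjusted p = 0.015). These differences go with cartridge, rearing site and, in fry 5 and fry 6, diet. They rest on 2 fry at 1119 °d: without fry 2, 0 genes were called, and leaving out fry 3, 4, 5 or 6 gave 8, 5, 6 and 6. *ghb* was close to its alevin level at 1119 °d (-0.06) and lower at 1320 °d (-1.69, SE 0.47, adjusted p = 4.2e-03), and the direct test between the ages gave an adjusted p of 0.11.

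Ratios of paralogs within a sample do not depend on the scaling. Of 101 pairs in 49 families, 25 pairs changed their log2 ratio from alevin to fry by an exact two-sided permutation test. All 25 had the smallest p that 4 against 6 samples allow (0.0095), for an adjusted p of 0.038. The largest change was that of *mmp13a* to *mmp13c*, from a mean log2 ratio of 0.30 ± 1.26 (SD, n = 4) to 4.81 ± 0.47 (SD, n = 6). The ratios of *otx2a* and of *otx2b* to *otx2c* were higher in all fry than in any alevin. No size is given for them, as *otx2c* was below the threshold in 3 of 6 fry. The ratio of *egr1a* to *egr1d* rose by 1.44, that of *prkar2ab* to *prkar2ad* by 1.10, and that of *arhgap6a* to *arhgap6d* fell by 1.28 on the log2 scale. Within the TEAD family, *tead1c* lost ground to *tead1a* (by 0.55) and to *tead1b* (by 0.64). In 5 pairs one gene was called higher and the other lower in fry: *egr1a* and *egr1d*, *mmp13a* and *mmp13c*, *pparab* and *pparaa*, *prkar2ab* and *prkar2ad*, and *prkar2ac* and *prkar2ad*. Unlike the ratios, these calls depend on the scaling. With TMM factors *egr1d*, *pparaa* and *prkar2ad* were not called, so that of the 5 pairs *mmp13a* and *mmp13c* alone had opposite calls. Close paralogs may share counts where no specific probe could be made.

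**Figure D5:**
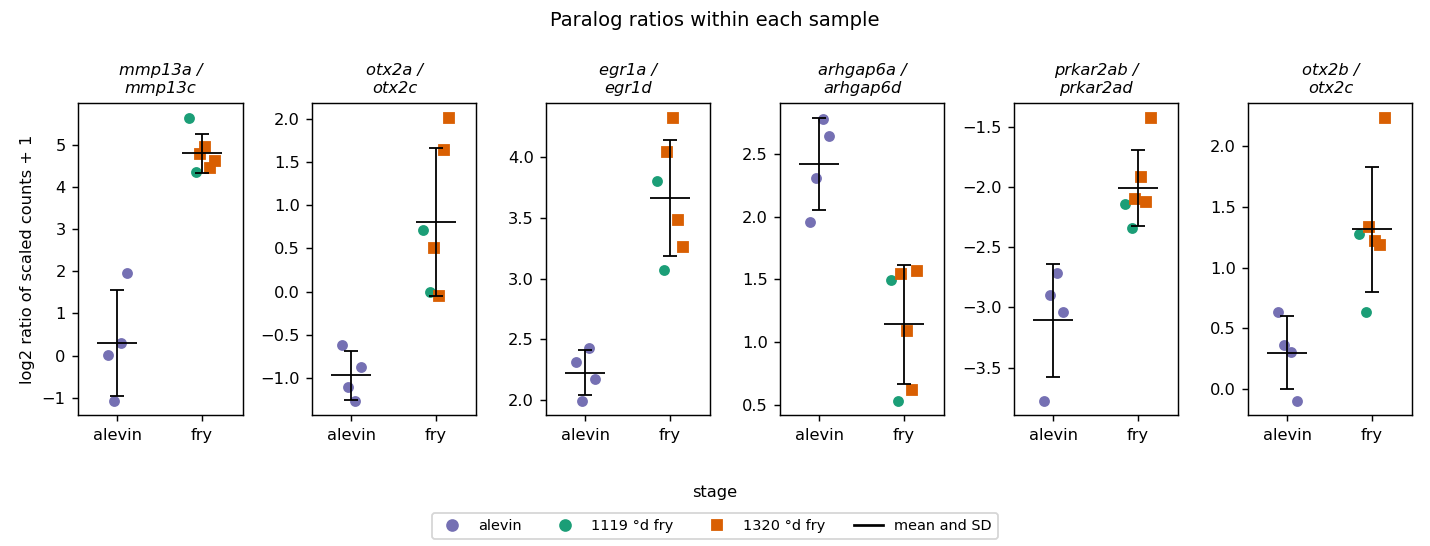
Log2 ratio of scaled counts + 1 of the 6 paralog pairs with the largest change, 1 point per sample, by stage (x axis), with a separate y axis per pair. Purple circles are alevin, green circles 1119 °d fry and orange squares 1320 °d fry, and the black bars are the mean and SD. In each of the 6 panels alevin and fry do not overlap. Below the threshold of 20 lie *otx2c* in 3 fry, *mmp13c* in 1 fry, *arhgap6d* in 2 alevin and *prkar2ab* in 1 alevin, so those ratios are not exact.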

How the data were processed

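The authors extracted RNA from whole fish, hybridised it to nCounter probes and deposited a table of raw counts per gene, with no normalization, and a table of normalized signal for 211 genes. Per the study's methods that deposited signal was made in nSolver 3.0 by dividing out, per sample, the geometric mean of *ef1ac*, *prkar1aa*, *rps20*, *rxrbaa*, *vdraa* and *vdrab*. Here the raw counts of 220 genes were scaled in the same way, and the result differed from the deposited signal by at most 0.0094% over the 7426 values whose raw count reached 100. Levels are these scaled counts, with no background subtracted. No genome build is named by the sources, and 169 probes were matched by RefSeq accession to Ssal_v3.1 for chromosome only. Columns without a sample numbered 0.

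Tests on counts were edgeR's quasi-likelihood F tests, with the log of the 6-gene factor as offset, on all 18 early samples in 4 stages, or 5 groups with the fry split by age. Each SE was calculated as the size of the log2 fold change divided by the square root of F. Benjamini-Hochberg adjustment ran over the 178 genes with a mean of at least 20 in at least 1 stage, at a threshold of 0.05. The test was checked on simulated counts in which the reference genes did not change, so this check does not cover the choice of scaling. Each gene was simulated with the same spread in every stage, so the wider spread among fry is not covered either. Paralog ratios (pseudocount 1) were tested by exact permutation over 210 regroupings. Named are *vgll3*, *akap11* and *six6* genes, the reference genes, the 15 largest rises and falls without overlap, up to 3 per direction of each list with members of described families, the largest changes between fry ages, and the 6 largest paralog changes. *cebpbb*, *tnfsf11*, *edar*, *cgba*, *cgbb*, the marker genes and members named beside a list fall outside this rule and were chosen after their values were seen. The members and lists were chosen with earlier results of these data known, and some lists were added once the gene symbols, not the values, were seen. The labels number the samples of a group and the protocol speaks of whole individuals. The p-values measure only the spread between samples, which in the count tests was estimated over all 18 early samples, embryos included. Fry pairs differed by at least 46.0 times the counting noise and alevin pairs by at most 23.7. On the alevin and fry alone 97 genes were called. The closest pair of alevin, 1 and 2, differed by 4.90 times the counting noise, so none was a copy. As depth, total counts limit the precision, and genes near 20 are the least certain. Alternatives were other scalings, DESeq2, limma, other filters, subtracted negative controls, cartridge or replicate number as a block, no low fat fry, and each sample left out. Versions were edgeR 4.0.16, limma 3.58.1 and DESeq2 1.42.0 in R 4.3.3, and scipy 1.17.1 in Python 3.11.15.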

Additional observations from a re-analysis of the deposited data

Results flagged for a closer look

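In 196 checks of a named gene in the alevin or the fry, 10 had a highest or lowest sample far from the rest of its group, where chance gives about 1 in 20. Alevin 4 was such a sample in 4 of them: lowest in *prkar1aa* (375.6 scaled counts, the next at 449.5) and *cebpba* (127, the next at 134.5), and highest in *rxrbaa* (139.3, the next at 105.8) and *tle4c* (49.17, the next at 23.47). Alevin 1 was highest in *ppargc* (29.44) and lowest in *otx2c* (54.27) and *prkar2ac* (138). Fry 4 was highest in *prkar1ba* (348.5) and *asmt* (75.21), and fry 5 in *col1a1b* (21270, the next at 10770).

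The change from alevin differed between the 1119 °d and 1320 °d fry by edgeR's direct test in *klf15a* (adjusted p = 0.01519), *rxrbac* (adjusted p = 0.01519) and *vdrac* (adjusted p = 0.01951), and the part of cartridge, rearing site and diet in this was not tested.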

How the results depend on the processing

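The number of genes called between fry and alevin lay between 97 and 120 under the scalings, filters, tests and sample sets tried, apart from the cartridge block (87), the cartridge that held every stage (96) and positive control scaling, which called 74. That scaling also called 33 genes at 1119 °d, 70 at 1320 °d and 0 between the ages. Between the ages, the 10 samples alone gave 0, leaving out the low fat fry 13, and leaving out 1 sample 0 to 8. The replicate numbers did not pair samples, since same-numbered alevin and fry had correlations of -0.13 to 0.14, and with the number as a replicate block 101 genes were called. For the 1320 °d fry no fit with cartridge as a term could be had. The cartridge block adds nothing to the 1119 °d comparison, since the 1320 °d fry are alone on their cartridge and the fold change then rests on the other 2 fry. For paralog ratios, the cartridge alone gave 0 calls, and leaving out 1 sample gave 0 to 33, with 33 without fry 2 and 0 without any other. Fewer samples raise the smallest p that is possible.

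Of the genes named by the rule, signs turned in 5. *rxrbaa* was at 0.30 with TMM, 0.25 with DESeq2, 0.18 with positive controls, 0.12 with 4 reference genes, 0.022 without *prkar1aa*, 0.14 without *vdraa*, 0.053 without *vdrab*, and between -0.16 and 0.086 with each sample left out, positive without alevin 4 (0.086), fry 1, fry 2 or fry 3. With TMM *pparaa* was at 0.042, *sox9d* at 0.012 and *otx2a* at 0.044, and *vdrac* was at -0.33 both with the cartridge as a block and within it, which is its value in the 1119 °d fry. For the rest the cause was not tested. Of 26 further genes named beside their lists, signs turned in 15 under at least 1 alternative. Of these 15 only *aesb* had been called (0.069 with TMM). With TMM *arb1* was at 0.20, *arb2* 0.31, *col1a1a* and *col1a2* 0.12, *lats2a* 0.18, *lats2b* 0.08 and *pgra* 0.26.

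With 1 sample left out, calls were lost for *akap11a*, *arhgap6e*, *asmt*, *col1a1b*, *dlk1a*, *ef1ac*, *egr1d*, *ghsrb*, *mst1a*, *pparaa*, *pparab*, *prkar1aa*, *prkar2ac*, *prkar2ad*, *six3c*, *tle4c*, *vgll3a*, *yap1* and *aesb*. Depth limits genes near 20 scaled counts.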
